A study of Mus musculus with 6 samples.

Results

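The genes described here are the clustered core histone genes and the linker histone genes of the mouse, measured in bone marrow. Members were the genes of the deposited table whose symbol is H1f, H2ac, H2bc, H3c or H4c followed by a number, or an older symbol beginning Hist1h to Hist4h. This held for 70 of 56496 genes, and they comprised 11 H1, 18 H2A, 17 H2B, 12 H3 and 12 H4 genes. H2ac14, counted here with the H2A genes, is annotated as an unprocessed pseudogene (GENCODE M21). RNA-seq was available for 6 libraries of bone marrow cells, 3 per group. Both groups were female Balbc mice that had carried tumours of 4T1 (mammary carcinoma cells of the same species) and had undergone resection. The Onway group (Onway 1, 2 and 3) received Onway by gavage for 2 weeks and the Control group (Control 4, 5 and 6) did not. The labels give wild type (WT) for all libraries, day 0 for Control and day 14 for Onway, so the effects of treatment and of labelled day cannot be told apart. The sources used here give neither the animals' age nor the contents of Onway. No label ties a library to a mouse of its own, and a p-value therefore measures only how these libraries spread.

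Histone proteins package DNA into nucleosomes, each a core of H2A, H2B, H3 and H4 wrapped by DNA, with the linker histone H1 at its entry and exit. Most of their genes lie in clusters, have no introns and are transcribed when DNA is replicated. Their mRNAs end in a short stem-loop bound by the protein SLBP in place of a poly(A) tail, whereas a few members also make mRNAs with a tail, as do linker histone genes that are active outside S phase. In bone marrow, the dividing precursors of granulocytes, red cells and B cells make replication-dependent histone mRNA.

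Of the 70 members, 55 lay on chromosome 13 and 10 on chromosome 3 of GRCm38, with 2 on chromosome 15, 2 on chromosome 6 and 1 on chromosome 11, per GENCODE M21. For 64 members the highest annotated transcript had a single exon. The stem-loop letters (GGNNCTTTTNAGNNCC, searched on the transcript strand) were found in 43 of the members' 80 annotated transcripts, belonging to 41 genes. Among other protein-coding transcripts, 55 of 58720 (0.0937%) held these letters. The match began 21 to 58 bases after the stop codon. Of the 37 member transcripts without it, 16 were annotated to end within 2 bases of the stop codon, so for these the window did not reach the place where it would lie. The sequences fell into 6 forms. The form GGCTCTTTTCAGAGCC was found in 24 genes of the H1, H2A, H2B and H3 classes, and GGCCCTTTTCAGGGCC in 6 H4 genes. The stem-loops below are those of genes whose values are described next, with the stem-loop in capitals and 5 flanking bases on each side in lower case.

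H4c2: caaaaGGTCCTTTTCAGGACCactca
H4c9: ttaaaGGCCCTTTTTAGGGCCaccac
H4c18: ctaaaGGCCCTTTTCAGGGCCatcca
H1f2: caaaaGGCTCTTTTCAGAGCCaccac
H2ac20: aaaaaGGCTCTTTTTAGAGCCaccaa
H2bc12: ccaaaGGCTCTTTTAAGAGCCactaa

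The annotated transcripts differ in what follows the stem-loop. In H4c2 (chr13:23757366-23757381 for the stem-loop, plus strand) 28 bases followed it, and in H4c18 31 bases. In H4c9 (chr13:22040966-22040981, minus strand) 330 bases followed it, and in H1f2 (chr13:23739512-23739527, plus strand) 840 bases. The transcripts of H4c9 and H1f2 both held AATAAA or ATTAAA, the letters of a poly(A) signal, in their last 50 bases, and those of H4c2 and H4c18 did not. H1f0 and H2bc4, also described next, had no stem-loop letters in their annotated transcripts, with 1198 and 742 bases after the stop codon.

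RefSeq gave a start for 62 members (GRCm38.p6). In the window from 250 bases before to 50 bases after it, CCAAT on either strand was found for 17 of 17 H2A, 14 of 14 H2B and 10 of 10 H3 genes, for 7 of 10 H1 genes and for 3 of 11 H4 genes. The same letters were found for 41.1% of 27025 genes. The octamer ATTTGCAT was found for 7 of 14 H2B genes and 6 of 17 H2A genes and for no H1, H3 or H4 gene, against 1.97% of all genes. Windows of neighbouring H2A and H2B genes on opposite strands can overlap. A site may then be counted for both genes, as is the octamer of H2ac8 and H2bc8. AAACACA, the H1 box, was found for 5 of 10 H1, 2 of 17 H2A and 2 of 14 H2B genes and for no H3 or H4 gene. It was found for 8.22% of all genes. TATAAA was found for 54.8% of the members and 15.7% of all genes. The 250 bases before the start of H1f2 and H2bc12 are printed as examples of an H1 and an H2B gene. Capitals mark these letters on either strand, so TTTATA is TATAAA and ATTGG is CCAAT read on the other strand. H1f2 had no TATAAA. In the H2bc12 stretch its only match is on the minus strand, the strand of the neighbouring H2ac12. A match is a description of the sequence and was not tied to the values.

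H1f2 (chr13:23738557-23738806, plus strand): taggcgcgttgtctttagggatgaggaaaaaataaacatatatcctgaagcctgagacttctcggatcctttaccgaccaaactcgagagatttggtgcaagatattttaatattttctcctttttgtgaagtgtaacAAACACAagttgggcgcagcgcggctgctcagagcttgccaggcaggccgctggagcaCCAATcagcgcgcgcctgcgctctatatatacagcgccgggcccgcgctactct
H2bc12 (chr13:22035571-22035820, plus strand): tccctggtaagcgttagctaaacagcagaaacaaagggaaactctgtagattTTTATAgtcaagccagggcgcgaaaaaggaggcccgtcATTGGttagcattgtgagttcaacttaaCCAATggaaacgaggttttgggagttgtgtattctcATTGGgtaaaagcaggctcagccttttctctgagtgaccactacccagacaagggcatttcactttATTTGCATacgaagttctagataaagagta

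The values are in TPM, a unit scaled to transcript length and to a fixed total within each library. Per the labels' protocols the library kit was of the SMARTer mRNA kind. How well it captured RNAs without a poly(A) tail is not given. Levels of genes whose mRNAs end in different ways may therefore not be comparable, and this was not tested. The table holds no read counts, so the depth is unknown and no counting error can be given. Histone genes together made up 0.0491% to 0.0761% of the TPM of a library. Haemoglobin genes took 26.6%, 11.6% and 18.3% of the TPM in Control 4, 5 and 6 and 13.3%, 9.38% and 33.9% in Onway 1, 2 and 3. The marrow label was met by the neutrophil lineage markers, whose 10 genes summed to 97873 to 212484 TPM in Control and 107081 to 190842 TPM in Onway. The 8 megakaryocyte markers summed to 1901 to 2143 TPM in Control and 92.9 to 151 TPM in Onway, and all 8 were lower in Onway at an adjusted p under 0.05. Of 8 skeletal muscle markers 7 passed as lower (664 to 4285 TPM against 16.7 to 24.2 TPM), as did 7 of 8 bone and stroma markers (401 to 1059 TPM against 21.5 to 39.4 TPM). These differences run along the same groups as the histone comparison, and their part in any histone difference was not tested. In bulk marrow, fewer cells of a type and less RNA per cell cannot be told apart.

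By TPM as listed, each class was led by a few genes. H1f2 made up 59.4% of H1 TPM over the 6 libraries, and with H1f0 88.7%. H2ac18 and H2ac19 made up 48.1% of H2A, and with H2ac10 and H2ac7 73.7%. H4c18, H4c9 and H4c17 made up 75.5% of H4. H2B and H3 were more evenly spread, with 27.8% for H2bc4 and 23.6% for H3c10. Of the members 13 reached a mean of 10 TPM, and 5 were listed at 0 in all 6 libraries (H1f7, H1f8, H1f9, H2ac1 and H2bc1). H1f7, H1f8 and H1f9 are known from germ cells.

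A class sum is less bound to how reads were divided among near-identical copies than a single gene is, but TPM is per length, so a division between transcripts of unequal length still bears on it. H1 genes summed to 113.2, 133.9 and 125.1 TPM in Control 4, 5 and 6 and to 138.4, 152.7 and 152.5 TPM in Onway 1, 2 and 3, the only class whose groups did not overlap. The means were 124.0 ± 10.4 and 147.9 ± 8.19 TPM (SD, n = 3 each), a ratio of 1.19. The lack of overlap holds for TPM as listed and depends on the scaling. The median ratio scaling factors were 0.974 for Control 5 and 1.16 for Onway 2. Division by them puts the H1 sum of Control 5 above that of Onway 2. H3 genes summed to 34.1, 55.5 and 23.5 TPM in Control and 52.1, 58.2 and 114.0 TPM in Onway. The H3 ratio was the highest of the 5 classes at 1.98 (37.7 ± 16.3 against 74.7 ± 34.1 TPM), but Onway 1 lay below Control 5, and without Onway 3 the ratio on the log2 scale went from 0.99 to 0.55.

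H2A genes summed to 165.6, 250.3 and 206.7 TPM in Control and 304.6, 218.5 and 258.2 TPM in Onway, a ratio of 1.25, with Onway 2 below Control 5. H2B and H4 differed by less than the spread within a group. H2B averaged 79.7 ± 19.9 TPM over Control and 83.7 ± 12.9 TPM over Onway, a ratio of 1.05. H4 averaged 98.6 ± 25.5 TPM over Control and 108.3 ± 25.5 TPM over Onway, a ratio of 1.10. The sign of the H2B ratio turned in 5 of 10 alternatives and that of H4 in 2 of 10, whereas H1, H2A and H3 kept theirs in all 10.

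The authors also deposited a mean per group. If it is a mean of 4 values, 4 times that mean minus the 3 libraries leaves a further value that belongs to no library of the table. In the authors' deposited table the group means summed over all members to 673 TPM for Control and 632 TPM for Onway, the opposite order of the 3 libraries given for each group (547.6 ± 96.6 and 675.1 ± 81.0 TPM). The further Control value was 1050 TPM, above every library, and the further Onway value 502 TPM. By class the further Control value was above the further Onway value in all 5, H1 (153 against 70.6 TPM) and H3 (165 against 25.5 TPM) included. The direction of the class sums therefore holds for the 3 libraries per group that the table lists, and it was the reverse in the authors' means for H1, H2B, H3 and H4.

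**Figure D1:**
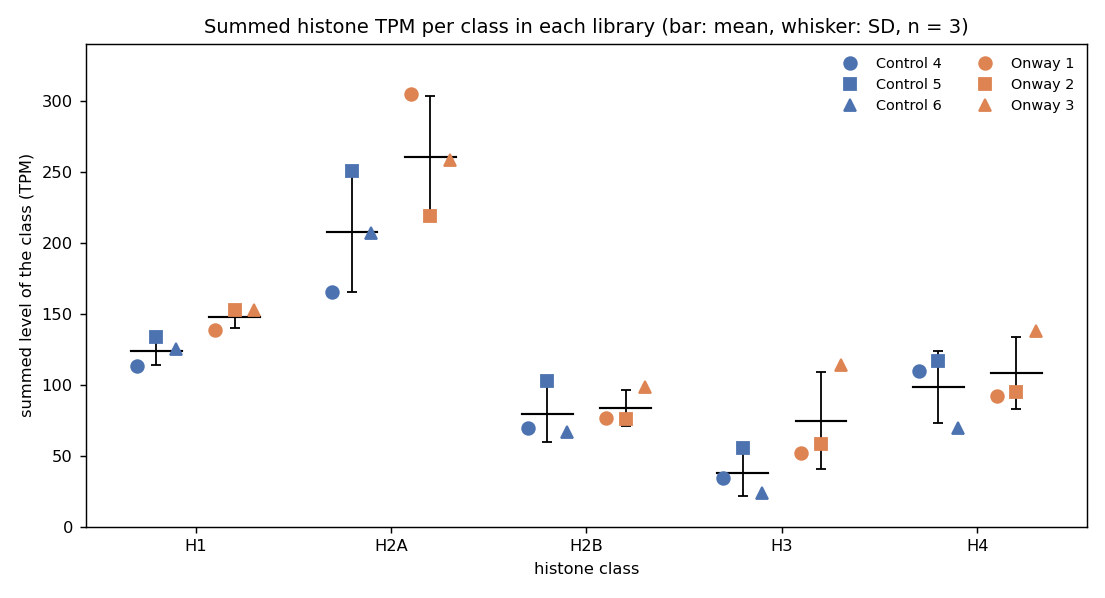
Summed TPM of each histone class (vertical axis) in the 3 Control and 3 Onway libraries (points), with the mean (bar) and SD (whisker) of each group; point shapes tell libraries of a group apart and pair nothing. In TPM as listed, H1 is the only class in which the Onway libraries (138.4 to 152.7 TPM) all lie above the Control libraries (113.2 to 133.9 TPM). With median ratio scaling the H1 groups overlap.

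Gene by gene, 57 members had a mean of at least 1 TPM and were tested with all other such genes (limma on log2(TPM + 1), Benjamini-Hochberg adjustment over 14192 genes). The 13 others had means of 0.933 TPM or less. Of the 57, 3 reached the minimum through the Onway mean alone (H2ac21, H3c6 and H4c4), so counts over the tested members are given as a description. One member, H4c2, passed an adjusted p of 0.05 as higher in Onway, and none passed as lower. Across all genes tested, 0.233% passed as higher and 2.99% as lower. At an unadjusted p under 0.05, 11 members were higher and 3 lower, against 4.95% and 8.42% of all genes. The groups did not overlap in 12 members with Onway above (21.1%, against 6.95% of all genes) and in 2 with Onway below (3.51%, against 11.5%).

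The fold change was positive for 47 of 57 members (82.5%, against 53.6% of all genes), with a median log2 fold change of 0.46 beside 0.03 over all genes and a range from −0.80 to 1.91. By class the medians were 0.48 for H1, 0.47 for H2A, 0.32 for H2B, 0.86 for H3 and 0.42 for H4, and all 10 H3 genes were positive. Without Control 4 and Onway 3, the libraries richest in haemoglobin, 38 of 58 members were positive, near the 64.9% of all genes in that setting, and the median was 0.22, beside 0.14 over all genes. Without Control 4 alone 45 of 57 were positive, and without Onway 3 alone 43 of 58. With the haemoglobin genes removed 51 of 60 were positive (median 0.43, beside 0.03 over all genes). With median ratio scaling 47 of 57 were positive (0.45, beside 0.02). The part of haemoglobin was not tested.

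**Figure D2:**
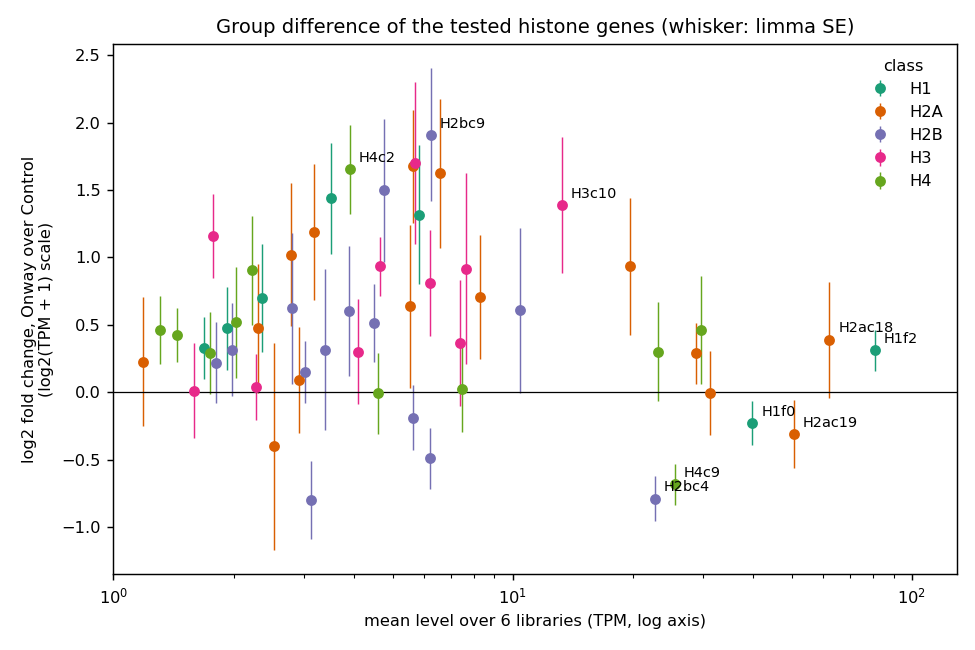
Log2 fold change of each of the 57 tested members on the log2(TPM + 1) scale (vertical axis, Onway over Control) against its mean TPM (horizontal log axis), coloured by class, with whiskers for the limma SE. Most points lie above 0 and H4c2 is the member that passed the threshold.

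Among the H4 genes, H4c2 (Hist1h4b, chr13:23757013-23757409) was at 0.75, 2.55 and 0.95 TPM in Control 4, 5 and 6 and 7.26, 4.30 and 7.64 TPM in Onway 1, 2 and 3. Every Onway library lay above every Control library. H4c2 rose by a log2 fold change of 1.65 (SE 0.33, adjusted p = 0.0414 in limma with Benjamini-Hochberg adjustment), and its means were 1.42 ± 0.987 and 6.4 ± 1.83 TPM. Its adjusted p ranged from 0.00974 to 0.170 over 14 alternatives and stayed under 0.05 in 4 of them. It was above 0.05 without each of Control 4, Control 6, Onway 1, Onway 2 and Onway 3. In the authors' deposited table its means were 4.56 and 5.58 TPM, which makes the further Control value 13.97 TPM, above all 6 libraries. H4c2 overlaps the antisense gene 4930558J22Rik, which was at 0.44 TPM or less in every library, and the sources used here do not say whether the counting used the strand. It shared 54.6% of its 50-base words with other members, so its reads may be divided with other H4 copies.

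H4c9 (Hist1h4i), one of the abundant H4 genes, was at 31.4, 34.5 and 29.0 TPM in Control and 18.5, 20.95 and 18.5 TPM in Onway. The groups did not overlap and the spread within each was small, but its log2 fold change of −0.68 (SE 0.15) had an adjusted p of 0.0667 in limma with Benjamini-Hochberg adjustment, above the threshold. Quantile normalization and median ratio scaling brought it to 0.0294 and 0.0351. H4c18 was at 26.5, 36.7 and 12.97 TPM in Control and 25.8, 28.4 and 46.9 TPM in Onway, with overlapping groups (adjusted p = 0.701 in limma). H4c17 was at 34.1, 17.2 and 12.7 TPM in Control and 20.3, 21.8 and 32.8 TPM in Onway, also overlapping. All of its TPM came from 2 transcripts assembled by the authors, and the annotated 402-base transcript was listed at 0 in every library. That annotated transcript shared 89.8% of its 50-base words with other members, all of them found in H4c18. The 2 assembled transcripts, which hold the TPM, were not searched for shared words. Summed, H4c17 and H4c18 averaged 46.7 ± 18.5 TPM over Control and 58.7 ± 18.3 TPM over Onway.

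Among the H2B genes, H2bc4 (Hist1h2bc, chr13:23684199-23692908), which has a transcript of 2 exons, was at 29.5, 25.4 and 32.3 TPM in Control. In Onway it was at 17.2, 17.6 and 14.4 TPM. The groups did not overlap, and the log2 fold change was −0.79 (SE 0.17, adjusted p = 0.0528 in limma with Benjamini-Hochberg adjustment). This value lies just above the threshold, and it was 0.0490 with a pseudocount of 0.1, 0.0152 with quantile normalization and 0.0203 with median ratio scaling. H2bc4 and H4c9 were the 2 members whose Onway libraries all lay below Control, and both were among the 13 members at 10 TPM or more.

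On the log2(TPM + 1) scale, H2bc9 (Hist1h2bh) had the largest positive fold change of the tested members. By the ratio of mean TPM, H4c2 (4.52) and H1f1 (4.41) were above H2bc9 (3.97). H2bc9 was at 0.78, 5.68 and 1.07 TPM in Control and 10.3, 8.90 and 10.7 TPM in Onway, without overlap, and its log2 fold change was 1.91 (SE 0.49, adjusted p = 0.132 in limma). The difference lay in a 394-base transcript assembled by the authors, at 0, 4.73 and 0.57 TPM in Control and 9.68, 7.40 and 9.24 TPM in Onway. The annotated 1679-base transcript of H2bc9 was at 1.5 TPM or less in every library, and with Ensembl transcripts alone the log2 fold change was 0.33. H2bc12 was at 4.71, 17 and 3.89 TPM in Control and 6.68, 9.77 and 20.5 TPM in Onway. Its groups overlapped and the sign of its difference turned (log2 fold change −0.045) without Control 4 and Onway 3.

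Among the linker histones, H1f2 (Hist1h1c), the member with the highest level of all 70, was at 66.3, 78.0 and 72.03 TPM in Control and 87.8, 95.3 and 85.5 TPM in Onway. Its groups did not overlap, although its log2 fold change of 0.31 (SE 0.16) had an adjusted p of 0.455 in limma. H1f0, the replication-independent linker histone known from differentiated cells, went the other way in its means. It was at 38.9, 42.0 and 48.3 TPM in Control and 36.7, 40.4 and 32.6 TPM in Onway, with overlapping groups (log2 fold change −0.23, adjusted p = 0.626 in limma). The H1 genes at lower levels had larger fold changes. H1f1 was at 1.44, 1.82 and 0.62 TPM in Control and 3.03, 3.96 and 10.1 TPM in Onway, without overlap (log2 fold change 1.44, adjusted p = 0.166 in limma). H1f5 was at 2.42, 6.18 and 0.93 TPM in Control and 5.83, 6.72 and 12.9 TPM in Onway, where Onway 1 lay below Control 5. H1f0 and H1f1 shared no 50-base word with another member, as was so for 4 of the 7 tested H1 genes.

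The most abundant H2A genes showed no common direction. H2ac18 was at 32.2, 60.0 and 63.8 TPM in Control and 117, 56.3 and 42.7 TPM in Onway, so that Onway 1 was the highest library and Control 4 the lowest. H2ac19 was at 41.6, 66.4 and 59.9 TPM in Control and 33.3, 55.6 and 46.3 TPM in Onway. Every 50-base word of H2ac19 is also in H2ac18, so the division between them cannot be relied on, and their sum averaged 108.0 ± 29.6 TPM over Control and 117.1 ± 31.1 TPM over Onway. H2ac10 was at 29.6, 23.2 and 40 TPM in Control and 38.5, 19.1 and 36.9 TPM in Onway, with a log2 fold change of −0.01. H2ac20 and H2ac22, at lower levels, were the 2 H2A genes whose groups did not overlap. H2ac20 was at 2.57, 3.95 and 0.59 TPM in Control and 6.67, 9.16 and 10.8 TPM in Onway (log2 fold change 1.68, adjusted p = 0.111 in limma). H2ac22 was at 2.92, 5.24 and 0.66 TPM in Control and 12.7, 5.32 and 12.7 TPM in Onway (log2 fold change 1.62, adjusted p = 0.267 in limma).

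H3 genes were mostly at low levels. H3c10 was at 5.24, 10.7 and 3.97 TPM in Control and 9.56, 17.1 and 33.2 TPM in Onway, overlapping through Onway 1 and Control 5. H3c10 and H3c11 share 79.3% of their words, and together they averaged 12.8 ± 6.03 TPM over Control and 28.5 ± 16.7 TPM over Onway, a ratio of 2.22. H3c13 was at 1.25, 10.2 and 4.23 TPM in Control and 6.10, 5.33 and 18.7 TPM in Onway. The H3 genes with the smallest p were H3c1 and H3c6. H3c1 was at 3.64, 2.73 and 2.27 TPM in Control and 5.69, 5.65 and 7.86 TPM in Onway, without overlap (log2 fold change 0.93, SE 0.22, adjusted p = 0.0775 in limma). H3c6 was at 0.52, 1.63 and 0.20 TPM in Control and 2.56, 2.76 and 3.00 TPM in Onway, also without overlap (log2 fold change 1.16, adjusted p = 0.126 in limma).

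**Figure D3:**
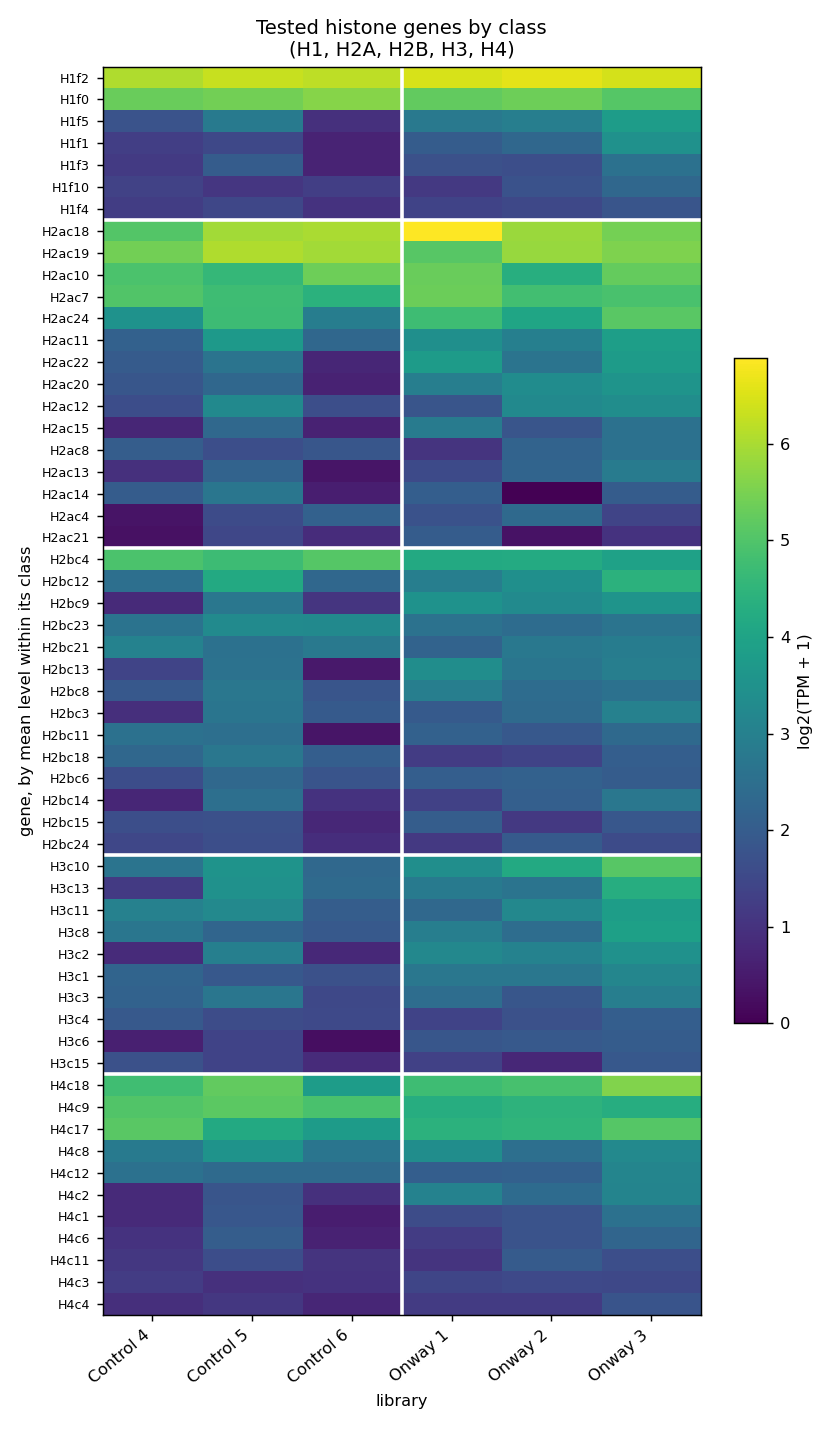
Level of the 57 tested members (rows, by class and by mean level within it) in the 6 libraries (columns), coloured as log2(TPM + 1). Control 6 is the lowest Control library for 35 of 57 members and Onway 3 the highest Onway library for 37.

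Many members were high or low in the same libraries of a group. Control 5 was the highest Control library for 40 of 57 members (70.2%), against 28.5% of all tested genes, and Control 6 the lowest for 35 (61.4%, against 27.0%). Onway 3 was the highest Onway library for 37 members (64.9%, against 13.4%), including 10 of 10 H3 genes. Onway 2 was the highest for 10 members (17.5%), although it was the highest for 62.1% of all genes. Onway 3 also had the highest haemoglobin share of the 6 libraries. In Control 5, 3 RNAs without a poly(A) tail, picked after their values were seen, were highest: Rn18s was at 1107 TPM against 337 to 526 TPM elsewhere, Rpph1 at 25.3 TPM against 0.60 to 2.48 TPM, and Rmrp at 22.3 TPM against 1.14 to 7.84 TPM. The part of either in the histone values was not tested. Without Control 5, 7 members passed as higher in Onway (H2ac15, H2ac20, H4c2, H3c2, H3c6, H2bc13 and H2bc9), against 0.226% of all genes in that setting. Of these, H2ac15, H3c2, H3c6 and H4c2 were under 1 TPM in both Control 4 and Control 6, so there they reached the minimum through Onway alone. H2bc9 was at 0.78 and 1.07 TPM in those libraries. For most members, leaving out Control 5 also removes the highest Control value, so the 7 are only a description. Without each of the other libraries no member passed, where 0.618% of all genes passed without Control 4, 0.163% without Control 6, 0.497% without Onway 1, 0.113% without Onway 2 and 0.505% without Onway 3.

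The annotated 3′ ends divide the members another way. Transcripts with fewer than 300 bases after the stop codon (49 transcripts of 47 genes) summed to 254, 404 and 264 TPM in Control and 437, 354 and 508 TPM in Onway. Their means were 307.6 ± 84.0 and 432.9 ± 76.7 TPM, a ratio of 1.41, with Onway 2 below Control 5. Of these 49 transcripts, 16 were annotated to end within 2 bases of the stop codon, H2ac10 and H3c10 included. Their true 3′ ends are therefore unknown. Transcripts with 300 bases or more (29 transcripts of 23 genes) summed to 192, 211 and 203 TPM in Control and 186, 206 and 189 TPM in Onway, a ratio of 0.960. Of the latter, 17 held a poly(A) signal in their last 50 bases, and of the former 7. The spread of the long ends within a group (SD 9.46 and 10.8 TPM) was smaller than that of the short ends. Members went both ways within the long-end sum. H1f2 averaged 72.1 TPM over Control and 89.5 TPM over Onway. The means were 43.1 and 36.6 TPM for H1f0, 29.1 and 16.4 TPM for H2bc4, and 31.6 and 19.3 TPM for H4c9. In neither sum were 13 transcripts assembled by the authors (34.3 and 45.6 TPM) and 2 without an annotated coding sequence. The 2 sums were not compared by a test.

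**Figure D4:**
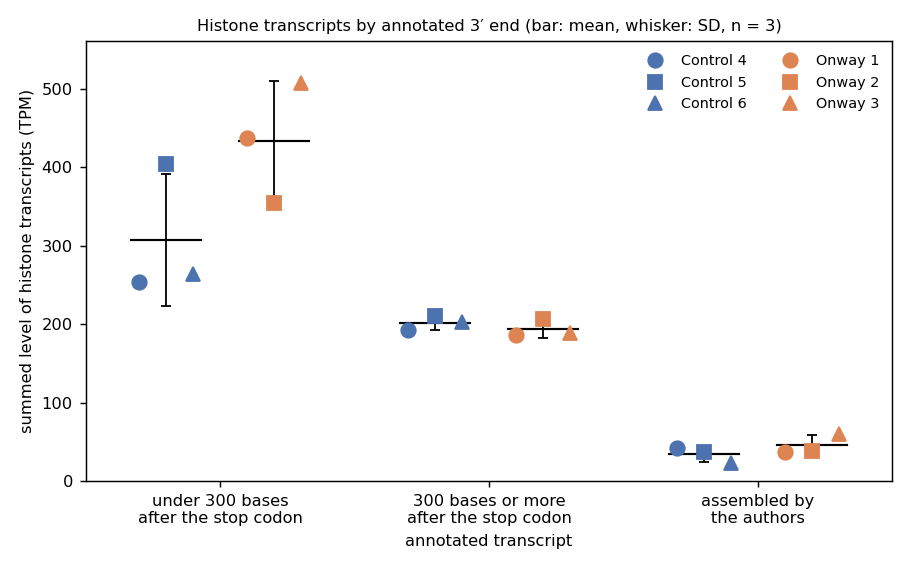
Summed TPM (vertical axis) of member transcripts by annotated 3′ end in each Control and Onway library (points), with group means (bars) and SD (whiskers). Short ends run from 254 to 508 TPM and include 16 transcripts annotated to end within 2 bases of the stop codon. The long-end sums, in which members went both ways, run from 186 to 211 TPM over the 6 libraries.

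The same division by the highest transcript of each gene gave 37 tested members with a short end, of which 33 were positive, with a median log2 fold change of 0.61. For these, 7 of 37 lay above Control without overlap and none below, where all genes had 6.95% above and 11.5% below. The 16 with a long end had 11 positive and a median of 0.18. Of these, 4 lay above (H3c6, H4c3, H1f2 and H4c4) and 2 below (H2bc4 and H4c9, near the share of all genes below). H3c6 and H4c4 reached the minimum of 1 TPM through the Onway mean alone, so the 4 above are only a description. Members at 10 TPM or more had 8 of 13 positive, and those under 10 TPM 39 of 44.

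Near-identical copies bear on all of these values. Words were taken from annotated transcripts only, so transcripts assembled by the authors are not covered. Of the 57 tested members, 29 share at least 50% of their 50-base words with the pool of all other members, and 6 share none. The median share was 79.7% for H2A, 62.0% for H3, 44.9% for H2B, 40.4% for H4 and 0 for H1.

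Of the genes that make and process histone mRNA, 0 of 21 passed the threshold in limma, and all 21 had a positive fold change with a median of 0.14. Slbp, which encodes the protein that binds the stem-loop, was at 221, 120 and 129 TPM in Control and 174, 153 and 183 TPM in Onway, and the groups overlapped (adjusted p = 0.832 in limma). Npat, a coactivator of histone transcription, was at 7.43, 4.09 and 4.54 TPM in Control and 5.53, 6.03 and 4.75 TPM in Onway (adjusted p = 0.957 in limma). The smallest p of the list were those of Mif4gd, a partner of SLBP in translation, and Tut7, a terminal uridylyltransferase. Mif4gd was at 22.5 ± 2.11 and 28.8 ± 2.26 TPM and Tut7 at 82.5 ± 16.7 and 105.9 ± 14.9 TPM, with adjusted p of 0.397 and 0.516 in limma.

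No gene of the other lists that bear on histones passed either. Among 18 histone chaperones and assembly factors the median was 0.04, and Hira, the chaperone of H3.3, was at 23.9 ± 3.25 and 30.1 ± 1.80 TPM in Control and Onway (adjusted p = 0.459 in limma). Atrx, a partner of the H3.3 chaperone Daxx, was at 35.3 ± 6.25 and 47.9 ± 11.5 TPM (adjusted p = 0.502 in limma). Among 9 replacement histones 5 had a positive fold change, and the median was 0.12. The groups did not overlap in 5 of the 9, counting either direction, against 18.4% of all genes. Macroh2a2 was at 1.46 ± 0.197 and 0.550 ± 0.0854 TPM (adjusted p = 0.220 in limma). H2ax, the variant phosphorylated at DNA breaks, was at 188.6 ± 12.7 and 244.5 ± 18.7 TPM without overlap (adjusted p = 0.381 in limma). The 28 S phase genes summed to 2610, 1756 and 1780 TPM in Control and 2056, 1953 and 2052 TPM in Onway, with a median log2 fold change of 0.04, and the 12 mitosis genes had a median of −0.02. The smallest p among these were those of Gins2 and Pole, of the replication machinery (adjusted p = 0.624 and 0.709 in limma), and Ccnb1 and Mki67, of dividing cells (0.688 and 0.768). S phase genes were highest in Control 4, where the histone total was 492 TPM, near the lowest of the 6. Of 10 B lineage markers none passed, all 10 were positive with a median of 0.95, and their sums were 250, 318 and 178 TPM in Control and 242, 673 and 721 TPM in Onway. The part of these markers in the histone values was not tested.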

How the data were processed

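RNA-seq of 6 bone marrow libraries was used. The authors deposited 1 table of TPM per transcript, 158850 in all, of which 16416 carry identifiers of newly assembled transcripts. Per the labels' protocols the library kit was of the SMARTer mRNA kind, and the submitters' processing notes name GRCm38 and mm10. The sources used here give no aligner, quantifier, strand setting or read depth. The labels' extraction text also describes a culture medium for cell differentiation, which does not match harvested marrow. The Onway columns carry another prefix and were matched by number.

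TPM was summed per gene (Python 3.11.15, pandas 2.3.3). Genes averaging 1 TPM or more were tested with limma 3.58.1 in R 4.3.3 on log2(TPM + 1), with the trend and robust options of its empirical Bayes step, two-sided, with Benjamini-Hochberg adjustment and a threshold of 0.05. Fold changes on this scale understate those of low genes. Class sums are values without a test. The authors' group means were taken as means of 4 values, and 4 times the mean fell below the sum of the 3 libraries for 0 transcripts in either group. This check cannot tell 4 values from a larger number, so the further values rest on that reading. The script was tested on simulated data. Transcripts and positions are from GENCODE M21, whose transcript lengths match the table for all 80 annotated member transcripts, and promoters from RefSeq.

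Members and gene lists were chosen with earlier results of these data known. Described with values were members past the threshold, the 3 with the highest mean and the 2 with the smallest p in each class, and H1f0. In the lists of histone and cell division genes these were the 2 with the smallest p, and Slbp and Npat. Cell type markers and haemoglobin are given by counts and sums. Other members were named after their values were seen. Alternatives covered the pseudocount, the filter, the robust option, scaling, assembled transcripts and left-out libraries.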

Additional observations from a re-analysis of the deposited data

Results flagged for a closer look

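The authors' group means imply a further value per group that belongs to no library of the table. The class sums of the further Control value were above every listed Control library for H1 (153 TPM), H2A (383 TPM), H2B (135 TPM), H3 (165 TPM) and H4 (214 TPM). The further Onway value was above every listed Control library for H2A alone (288 TPM). The further Control value exceeded the 3 Control libraries in 43 of the 57 tested members, and the further Onway value lay below the 3 Onway libraries in 37. The further Control value was above the further Onway value in 50. No label describes either value, and neither entered a test.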

How the results depend on the processing

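The count of members past the threshold as higher in Onway, 1 as reported, was 0 with no filter, a mean of at least 5 TPM (where H4c2 was not tested), quantile normalization, haemoglobin removed, median ratio scaling, and Control 4 and Onway 3 left out together. With 1 library left out it ranged from 0 to 7, and 7 came without Control 5, a count given only as a description. The count lower in Onway, 0 as reported, was 1 with a pseudocount of 0.1 and 2 with quantile normalization or median ratio scaling. It stayed 0 with any 1 library left out. For H4c2 the adjusted p (limma) was 0.0881, 0.0914, 0.0638 and 0.0880 with no filter, quantile normalization, haemoglobin removed and median ratio scaling. The cause was not tested.

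The log2 fold change of H2ac10, −0.01 as reported, was 0.0055 with haemoglobin removed, 0.0048 with Ensembl transcripts only, 0.19 without Control 6 and 0.31 without Onway 2, and ranged from −0.19 to 0.31 with 1 library left out. That of H2ac18 was −0.023 without Onway 1 and ranged from −0.023 to 0.69 with 1 library left out. Those of H2bc12 and H3c13 were −0.045 and −0.19 without Control 4 and Onway 3. None of these 4 members passed the threshold in any alternative. Class sums moved by less than 1 SD in all 10 alternatives each, with the sign turning 5 times for H2B and 2 times for H4. No paired analysis was possible because the groups share no replicate numbers. Depth is unknown, so detection limits of low members cannot be given.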
